A study of Caenorhabditis elegans with 2 samples.

Results

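The genes described are the small nuclear RNA (snRNA) genes of Caenorhabditis elegans other than those of spliced leader RNAs. They are all genes of biotype snRNA on nuclear chromosomes of the WBcel235 Ensembl annotation whose name does not start with sls-, which gave 99 genes of 129 nuclear snRNA genes and of 46890 nuclear genes in all. No measured value entered that choice. Chromatin immunoprecipitation sequencing (ChIP-seq) located the eGFP-tagged product of R02D3.7, named rcat-1 in the annotation, in whole L3 larvae of mixed sex and unknown age. The strain, OP218, has the genotype unc-119(ed3) III; wgIs218, and both libraries are biological replicates of this 1 group. The samples include no control, and both replicates were called against 1 shared control alignment, so sites that depend on the tagged protein and sites listed for any tagged protein cannot be told apart. Whole larvae pool all cell types.

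Small nuclear RNAs are the RNA parts of the spliceosome: U1 pairs with the 5′ splice site, U2 with the branch site, and U4, U5 and U6 join as a tri-snRNP in which U6 takes part in catalysis. In animals U1, U2, U4 and U5 genes are transcribed by RNA polymerase II and U6 genes by RNA polymerase III, and both kinds have a promoter element just upstream of the gene that is bound by the SNAP complex. SmY RNAs are nematode RNAs linked to spliced leader trans-splicing. In C. elegans many snRNA genes are short, occur in several copies and lie inside or between other genes.

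The annotation does not give the type of each gene, so families were named by sequence: genes at least 80% identical over at least 80% of the longer gene were joined, and a family was named by a motif of its RNA (ACTTACC for U1, GTAGTA for U2, AGCTTTG for U4, CTTTTAC for U5, ACAGAGA for U6), read on the gene's own strand. This gave 13 U1, 19 U2, 5 U4, 12 U5 and 24 U6 genes, 73 in all. A further 10 genes carry smy- names. The last 16, called other below, fell in none of these groups, so 26 of the 99 genes were placed in no spliceosomal family. Of the 73 genes, 5 lack the motif and were placed by identity alone. Among the 13 U1 genes, T27E4.22 and T27E4.12 overlap on the same strand and are counted apart. Of the 16, W07G1.24 carries the U2 motif without meeting the joint limits of identity and length. Another, mir-1831 (WBGene00077724), is an annotation of 22 bp inside the U1 gene sup-39. Gene lengths ran from 22 to 187 bp. Several loci share 1 name (74 distinct names for 99 genes), so identifiers are given where needed.

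The sequences below show a choice of the start regions on which the results turn: genes with a summit in the IDR list, and copies of the same RNA without one. Each runs 5′ to 3′ on the gene's strand, from 80 bases upstream to the 20th base of the gene, in the RefSeq genome sequence of WBcel235 (ce11). The IDR list holds the pooled regions whose ranks repeat best between replicates, judged by their irreproducible discovery rate. Capitals mark GCGNNNCC or TGTNNG between 80 and 30 bases upstream and TATATAA between 40 and 15 bases upstream, where N is any base. The pair of U4 genes, the pair of U5 genes and the U6 genes named R07E5.16 are copies with identical gene sequences, while F54D8.7 is a U6 gene of another sequence. The set is not complete. Of the genes with an IDR summit, T08G5.11, F08H9.11 (both U1) and F32B5.9 (U5) are not shown, and F08H9.11 lacks GCGNNNCC there. WBGene00014430 was taken for its low upstream identity (48.8%) to WBGene00014543. The R07E5.16 copies WBGene00014392 and WBGene00014393, also in no list, carry both GCGNNNCC and TGTNNG and are not shown.
sup-39 WBGene00006344 (U1, IDR summit), chrII:6968539-6968638 minus strand: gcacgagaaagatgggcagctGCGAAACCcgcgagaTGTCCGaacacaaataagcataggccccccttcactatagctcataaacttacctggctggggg
sup-6 WBGene00006315 (U1, IDR summit), chrII:12944948-12945047 minus strand: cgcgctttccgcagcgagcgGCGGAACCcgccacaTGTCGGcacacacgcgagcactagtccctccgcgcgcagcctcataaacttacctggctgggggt
C47F8.9 WBGene00014311 (U2, IDR summit), chrII:13829472-13829571 minus strand: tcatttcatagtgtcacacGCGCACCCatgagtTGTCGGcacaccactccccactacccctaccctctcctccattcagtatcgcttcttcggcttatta
T11F9.15 WBGene00014291 (U4, IDR summit), chrV:11980038-11980137 plus strand: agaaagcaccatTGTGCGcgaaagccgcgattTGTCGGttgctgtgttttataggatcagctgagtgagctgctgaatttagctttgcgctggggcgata
T11F9.15 WBGene00014517 (U4, in no list), chrV:11478068-11478167 plus strand: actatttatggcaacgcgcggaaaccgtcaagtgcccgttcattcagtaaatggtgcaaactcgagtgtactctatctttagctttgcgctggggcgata
F38E11.11 WBGene00014366 (U5, IDR summit), chrIV:9444562-9444661 plus strand: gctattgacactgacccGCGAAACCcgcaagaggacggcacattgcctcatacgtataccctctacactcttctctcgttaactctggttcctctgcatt
F38E11.11 WBGene00014367 (U5, no IDR summit), chrIV:9464619-9464718 minus strand: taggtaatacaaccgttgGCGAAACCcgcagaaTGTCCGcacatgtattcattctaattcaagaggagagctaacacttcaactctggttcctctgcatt
R07E5.16 WBGene00014543 (U6, IDR summit), chrIII:10989599-10989698 plus strand: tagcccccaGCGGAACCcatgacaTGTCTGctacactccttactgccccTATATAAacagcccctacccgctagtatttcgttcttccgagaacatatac
F54D8.7 WBGene00195000 (U6, IDR summit), chrIII:5080879-5080978 minus strand: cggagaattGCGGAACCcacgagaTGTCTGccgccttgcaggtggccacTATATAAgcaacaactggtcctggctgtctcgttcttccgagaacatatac
R07E5.16 WBGene00014484 (U6, no IDR summit), chrIII:4414105-4414204 plus strand: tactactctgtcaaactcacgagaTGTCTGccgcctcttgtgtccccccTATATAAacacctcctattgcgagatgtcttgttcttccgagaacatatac
R07E5.16 WBGene00014430 (U6, in no list), chrIV:13435867-13435966 minus strand: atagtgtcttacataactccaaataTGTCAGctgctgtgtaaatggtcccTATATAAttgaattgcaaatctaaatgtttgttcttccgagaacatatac

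An IDR summit lay within 200 bp of 11 of the 99 snRNA genes (11.1%), against 3.39% of all nuclear genes. Measured from the 5′ end alone the same count of 11 genes (11.1%) stood against 2.35% of all nuclear genes. Among other short noncoding genes the share was 20% of 30 spliced leader genes, 17.1% of 346 snoRNA genes and 8.82% of 612 tRNA genes, so the snRNA share fell within the range of these classes. The design holds no contrast between groups, and none of these differences was tested. In the relaxed lists, which hold many low-signal regions, snRNA genes stood closer to the background. A pooled summit lay near 40 genes (40.4% against 29.9% of nuclear genes), a replicate 1 summit near 37 (37.4% against 30.9%) and a replicate 2 summit near 34 (34.3% against 30.9%). Both replicate lists had a summit near 27 genes, and 52 genes had none in any of the 4 lists. The shares over all nuclear genes were not counted for these, so neither count is read as a result about snRNA genes.

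The genes with an IDR summit were spread over the spliceosomal families. They comprised 4 of 13 U1 genes (30.8%), 1 of 19 U2 genes (5.26%), 1 of 5 U4 genes (20%), 2 of 12 U5 genes (16.7%) and 2 of 24 U6 genes (8.33%). The eleventh was mir-1831, which shares the summit of sup-39, and none of the 10 SmY genes had one. With 1 to 4 genes per family, no order of the families was read from these shares. Pooled summits lay near 7 of 13 U1, 11 of 19 U2, 2 of 5 U4, 7 of 12 U5, 6 of 24 U6, 4 of 10 SmY and 3 of 16 other genes. By chromosome, 4 of the 11 genes lie on II, 3 on V, 2 on III and 1 each on I and IV, while none of the 3 genes on X had an IDR summit.

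**Figure D1:**
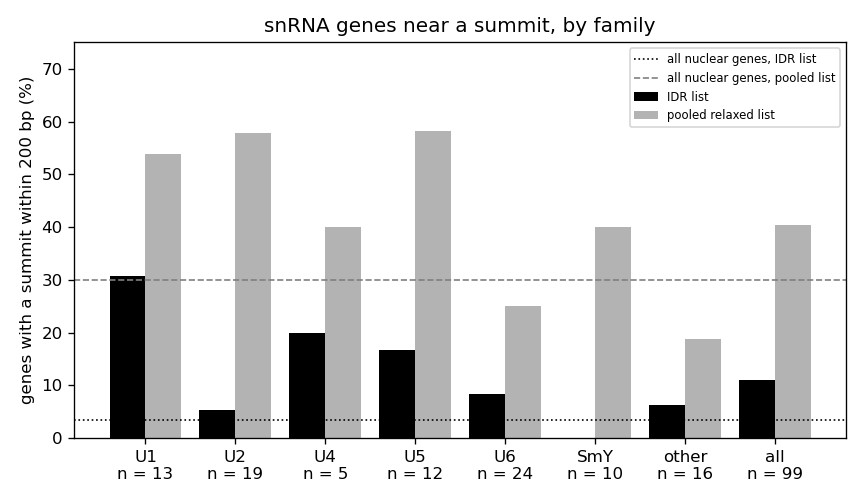
Percent of snRNA genes with a summit within 200 bp, by family (n under each name), in the IDR list (black bars) and the pooled relaxed list (grey bars); lines give the percent over all nuclear genes (3.39% and 29.9%). The U1 bar of the IDR list reaches 30.8%, and SmY has none.

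The signal is the authors' own value for a region, on a scale not given in the sources used here. The IDR list carries the pooled list's value, ranks are places by signal within a list, and positions are in bp from the annotated 5′ end on the gene's strand, negative upstream. Depth is not given either, so the replicates are the only measure of precision.

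Among the U1 genes, sup-39 (WBGene00006344, chrII:6968394-6968558, minus strand), named after suppressor mutations like sup-6, had signals of 107 in replicate 1 and 69.5 in replicate 2. Its pooled signal was 182 (rank 270), with the summit at 9 bp, in an intron of C15F1.5. The U1 gene sup-6 (WBGene00006315, chrII:12944803-12944967, minus strand) had 86 in replicate 1, 67.3 in replicate 2 and 162 in the pooled list (rank 311), with the summit at 13 bp in an intron of F58G1.7. Both pooled summits sat near the first bases of the RNA, and both genes ranked in the upper part of the IDR list. The replicates placed the summits less closely. The highest sup-39 region was at 5 bp in replicate 1 and 51 bp in replicate 2. The highest sup-6 region was at 198 bp in replicate 1 and -26 bp in replicate 2. The other U1 genes were lower: F08H9.11 (WBGene00014317, chrV:14468569-14468733, minus strand) had 29.8, 38.4 and 68.1 in replicate 1, replicate 2 and the pooled list (rank 1029, summit at -35 bp). T08G5.11 (WBGene00014511, chrV:14028471-14028635, minus strand) had 24.7, 33.6 and 59 (rank 1253), the lowest pooled value of the 11, with its IDR summit beyond the 3′ end at 195 bp.

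The U2 gene with an IDR summit was C47F8.9 (WBGene00014311, chrII:13829305-13829491, minus strand). Its signals were 38.8 in replicate 1, 39.9 in replicate 2 and 75.8 in the pooled list (rank 881). The replicates were close to each other, and the gene is 1 of 7 identical copies. It had 2 IDR summits that flank the gene, the higher at 240 bp, which is 54 bp beyond the 3′ end, and the lower, with a signal of 62.9 (rank 1154), at -14 bp. Both lie in the promoter window of the histone gene his-42.

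The U4 gene T11F9.15 (WBGene00014291, chrV:11980118-11980261, plus strand) had 120 in replicate 1, 89.1 in replicate 2 and 210 in the pooled list (rank 228). The higher of its 2 summits lay at -18 bp and the other, with a signal of 140 (rank 389), at 182 bp, which is 39 bp past the 3′ end. The higher summit also lies 377 bp upstream of the nearest coding start, that of snr-4, which encodes a protein of the Sm ring that assembles on snRNAs.

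The U5 gene F38E11.11 (WBGene00014366, chrIV:9444642-9444763, plus strand) had 75.7 in replicate 1, 66.3 in replicate 2 and 143 in the pooled list (rank 379). Its summits lay at -20 bp and, with a signal of 98.2 (rank 628), at 179 bp, inside an exon of hsp-12.3, which encodes a small heat shock protein. F32B5.9 (WBGene00044927, chrI:2688947-2689069, plus strand), the other U5 gene, had 65.9, 41.5 and 107 in replicate 1, replicate 2 and the pooled list (rank 553). It lies inside cpz-1, and its summits sat at -21 bp and, with 85.4 (rank 757), at 178 bp. In both U5 genes 1 summit lay just upstream and 1 beyond the 3′ end. Paired IDR summits were at least 199 bp apart and these genes are 122 and 123 bp long. A second summit downstream therefore falls past the gene, and the like placement is not read as a trait of the genes.

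The highest signal of all 99 genes belonged to a U6 gene, R07E5.16 (WBGene00014543, chrIII:10989679-10989780, plus strand), in an intron of the dynein gene dhc-4. It had 124 in replicate 1 (rank 233), 93.1 in replicate 2 (rank 209) and 212 in the pooled list (rank 225), with the summit at -37 bp. The second U6 gene, F54D8.7 (WBGene00195000, chrIII:5080798-5080898, minus strand), had 68.3 in replicate 1, 28.45 in replicate 2 and 95.5 in the pooled list (rank 651), with the summit at -26 bp. Its replicates stood apart in rank, 467 against 1662.

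The highest IDR signal of each of the 11 genes ran from 59 to 212 with a median of 143. The median over all 1584 IDR peaks was 82.2 (range 50.7 to 4055), and 8 of the 11 lay above it. The 2 medians are not like for like. The gene median leaves out the lower summit of the 4 genes with 2 (62.9, 85.4, 98.2 and 140). It also counts the sup-39 region again for mir-1831, and both choices raise it. None of the 11 genes reached the top 200 places of the list. In the replicate lists, 10 of the 11 were within the 1584 highest regions of each: T08G5.11 was not in replicate 1 (rank 1652), and F54D8.7 was not in replicate 2. No other snRNA gene was within the 1584 highest regions of either replicate. The IDR list keeps regions whose ranks repeat between these replicates. The high replicate ranks of the 11 genes thus follow in part from how they were chosen.

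**Figure D2:**
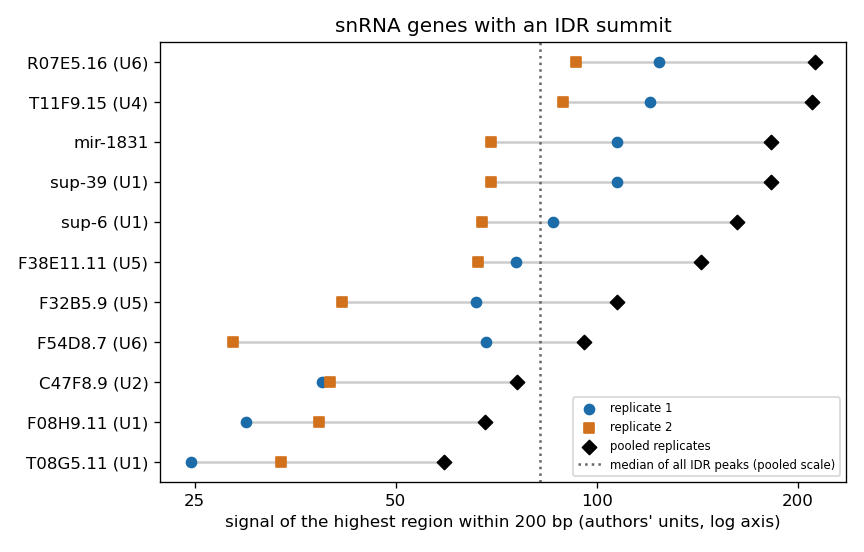
Signal of the highest region within 200 bp of each snRNA gene with an IDR summit (log axis, authors' units) in replicate 1 (circles), replicate 2 (squares) and the pooled replicates (diamonds); the dotted line is the median of all IDR peaks, 82.2, on the pooled scale. Genes are ordered by pooled signal, from 212 for R07E5.16 to 59 for T08G5.11, and mir-1831 and sup-39 share 1 region.

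The highest IDR summit lay at a median of -18 bp from the 5′ end (range -37 to 240): upstream of the gene in 6 of 11 cases, inside it in 3 and beyond its 3′ end in 2. The 3 inside include both sup-39 and mir-1831, which share 1 summit. The median position of the highest replicate summit was -2 bp in replicate 1 and -22 bp in replicate 2. For 8 of the 11 genes these replicate summits lay within 50 bp of each other (median 42 bp, range 8 to 224). For 2 genes they lay at least 100 bp apart: sup-6, at 198 bp in replicate 1 and -26 bp in replicate 2, and F08H9.11, at -58 and 94 bp. The 11 genes had 14 distinct summits, since 4 genes had 2 IDR summits, 199 to 254 bp apart, and mir-1831 shares one. Of the 14 regions, 9 were 384 bp wide with the summit at the centre, a width that 71.5% of all IDR regions have, and the other 5 were 96 to 230 bp wide. A width that is common to most regions limits how finely a summit can be placed. Paired summits were at least 199 bp apart and no gene is longer than 187 bp, so both summits of a pair cannot lie inside a gene.

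**Figure D3:**
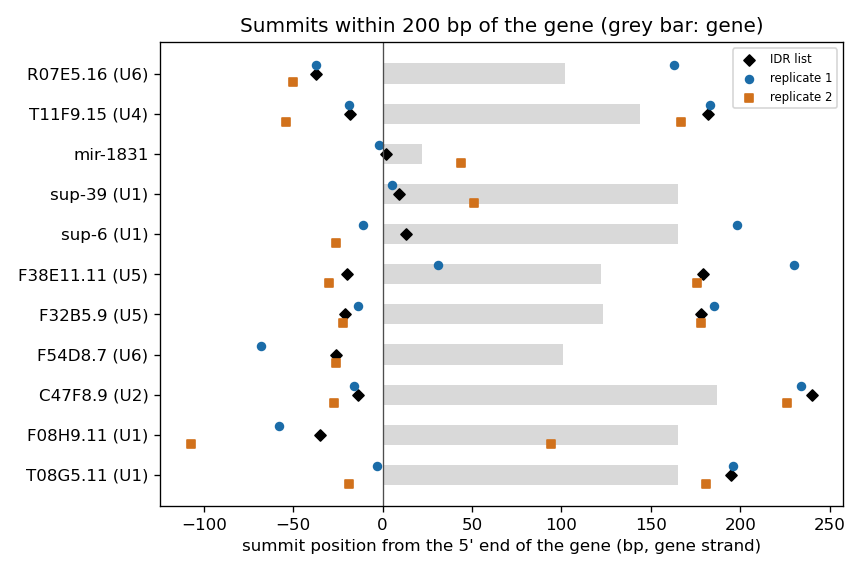
Summit positions in bp from the 5′ end of each snRNA gene with an IDR summit, on the gene's strand, in the IDR list (diamonds), replicate 1 (circles) and replicate 2 (squares); grey bars are the genes. In T11F9.15, F38E11.11, F32B5.9 and C47F8.9 the 2 IDR summits flank the gene, 1 just upstream and 1 past the 3′ end. These pairs are at least 199 bp apart, and no gene is longer than 187 bp.

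Identical copies limit what the lists can show. A share of unique words, the percent of 36-base words within 200 bp of a gene that occur once in the genome on either strand, had a median of 81.1% for the 11 genes (range 59.6 to 89.5) and 80.8% for the other 88. Within the gene itself 36 of the 99 genes had no unique word, among them 5 of the 11: C47F8.9, F54D8.7, R07E5.16, F38E11.11 and T11F9.15. No word of that length inside those 5 genes belongs to 1 copy alone, whereas most words around them are unique. The part of this in the positions of the summits, and in the absence of other genes from the lists, was not tested.

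The 5 genes with identical copies allow the same RNA to be compared at several loci. None of their 23 other copies had an IDR summit, where 3.39% of all nuclear genes have one. An absence from so few genes is near that share and is not read as a result about the copies. A pooled summit was near 9 of the 23, where 29.9% of all nuclear genes have one. The highest signal among these 9 was 39.9, against 75.8 or more at the 5 genes. Those 5 were taken for their IDR summit, and no IDR signal is below 50.7, so part of this gap follows from the choice. The second U4 copy, T11F9.15 (WBGene00014517), was in none of the 4 lists, against a pooled signal of 210 at its twin. Of the words around it 78% are unique, and none inside the gene is. The second U5 copy of F38E11.11 (WBGene00014367) had 10.1 in replicate 1, no region in replicate 2 and 13.1 in the pooled list, with 80.9% unique words. The upstream 80 bases of these copies differ: 56.2% were identical between the U4 copies and 60% between the U5 copies.

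Of the 14 copies of the U6 gene R07E5.16, 1 had an IDR summit. Pooled signals at the next copies were 39.9 (WBGene00014484), 32.7 (WBGene00014266) and 30.3 (WBGene00235247), and the other copies had no pooled region. Their share of unique words ran from 46.9% to 82%, below the 84.6% at the copy with the summit. Their upstream 80 bases were 48.8% to 68.8% identical to those of that copy. Neither of the other copies of F54D8.7 was in the pooled list, with 80.7% and 81.1% unique words. The 6 further copies of the U2 gene C47F8.9 share more upstream sequence, 75% to 83.8%, and 5 of them had pooled signals of 11 to 27.6, with 31.9% to 68.5% unique words around the 6. Copies of 1 RNA thus came with unlike signals in the lists. The share of unique words around the copy with the summit was 77.4% for U4, 81.1% for U5 and 83.7% for F54D8.7. Around the other copies it was 78% for U4, 80.9% for U5, and 80.7% and 81.1% for F54D8.7. No word inside these genes is unique. The part of word uniqueness in the differences of signal was not tested.

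**Figure D4:**
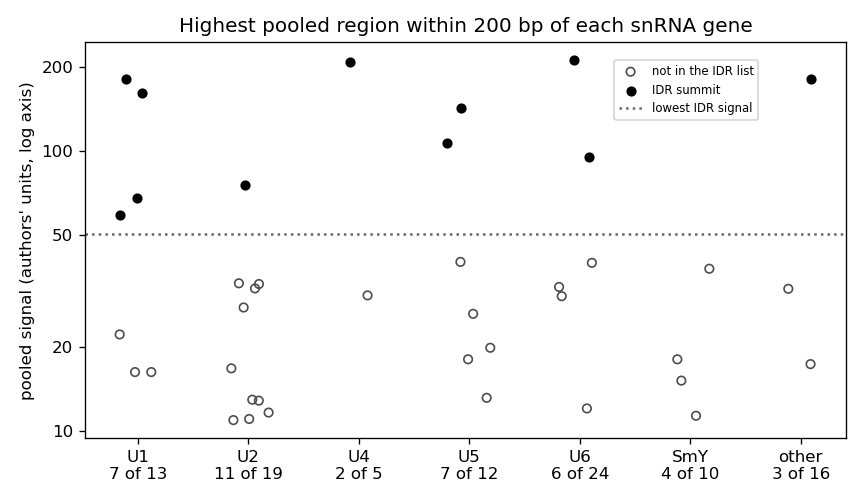
Pooled signal (log axis, authors' units) of the highest region within 200 bp of each snRNA gene that has one, by family, with the number of such genes under each name; filled points have an IDR summit and the dotted line is the lowest IDR signal, 50.7. All open points lie at or below 40.18.

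Of the 88 genes without an IDR summit, 29 had a pooled summit, at ranks 2211 to 26986. The highest were the U5 gene F42C5.12 (WBGene00194997, 40.18), the U6 copy R07E5.16 (WBGene00014484, 39.9), smy-1 (38), and the U2 genes Y57G11C.35 (33.7) and F08G2.11 (33.5). All 5 had a region in both replicate lists, each of which has a summit near 30.9% of all nuclear genes. Signals in replicate 1 and replicate 2 were 18.4 and 21.4 for F42C5.12 and 12.7 and 14.6 for smy-1. F08G2.11 had 19.4 and 9.82, the latter at rank 15744. Presence in both lists is therefore not read as a repeated site. The IDR count changed little with the distance limit: the nearest IDR summit lay at most 37 bp from each of the 11 genes, and the next gene, smy-1, was 348 bp from one and is the twelfth with a limit of 500 bp. The pooled count of 40 genes was 37 at 100 bp and 42 at 500 bp. Shares over all nuclear genes were counted at 200 bp only. The counts at 100 and 500 bp are therefore not read as a result about snRNA genes. Among the SmY genes smy-9, smy-6 and smy-4 had pooled signals of 18, 15.1 and 11.3, and none of these 3 was in both replicate lists. Of the 16 other genes, apart from mir-1831, M163.13 had 32.2 and F56A12.5 17.3 in the pooled list.

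snRNA genes often lie beside coding genes, so each summit was placed against coding starts. Of the 14 summits, 10 (71.4%) lay in a coding promoter window, from 1000 bp upstream to 200 bp downstream of a coding transcript start, close to the 69.8% of all IDR summits that did. These 10 summits belong to 8 of the 11 genes. The nearest coding start was 304 to 3304 bp away from the 14 summits (median 634); their nearness to an snRNA gene is set by how they were chosen. With a window of 500 bp upstream to 100 bp downstream the sharing fell from 8 genes to 2. The promoters shared were those of eif-2Bgamma, a translation initiation factor subunit, his-42, cox-6A, a cytochrome c oxidase subunit, F38E11.9, snr-4, T08G5.3, clec-57 and srz-97. The summits of sup-6, R07E5.16 and F32B5.9 lay in no such window. By annotation 8 of the 14 summits were outside coding genes, 4 in introns and 2 in exons of coding genes.

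The upstream sequences shared features that took no part in choosing the genes. The motifs were picked after the upstream sequences had been read. GCGNNNCC stood between 80 and 30 bp upstream, on the gene's strand, of 59 of the 99 genes, TGTNNG of 63, and both with a gap of 6 to 7 bp of 43 (43.4%), starting at a median of -61 bp. The same pair was found at 26.7% of spliced leader genes, 5.49% of snoRNA genes, 0% of tRNA genes, 0.025% of protein-coding genes and 0.19% of all nuclear genes. It was present at 17 of 19 U2, 6 of 10 SmY, 6 of 12 U5, 5 of 13 U1, 2 of 5 U4 and 5 of 24 U6 genes. All 7 copies of the U2 gene C47F8.9, which share much upstream sequence, are among these. TATATAA, between 40 and 15 bp upstream, was found at 15 of 24 U6 genes and at none of the U1, U2, U4, U5 and SmY genes, against 0.934% of all nuclear genes. In U6 genes 95.8% share 1 base at -59 bp.

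**Figure D5:**
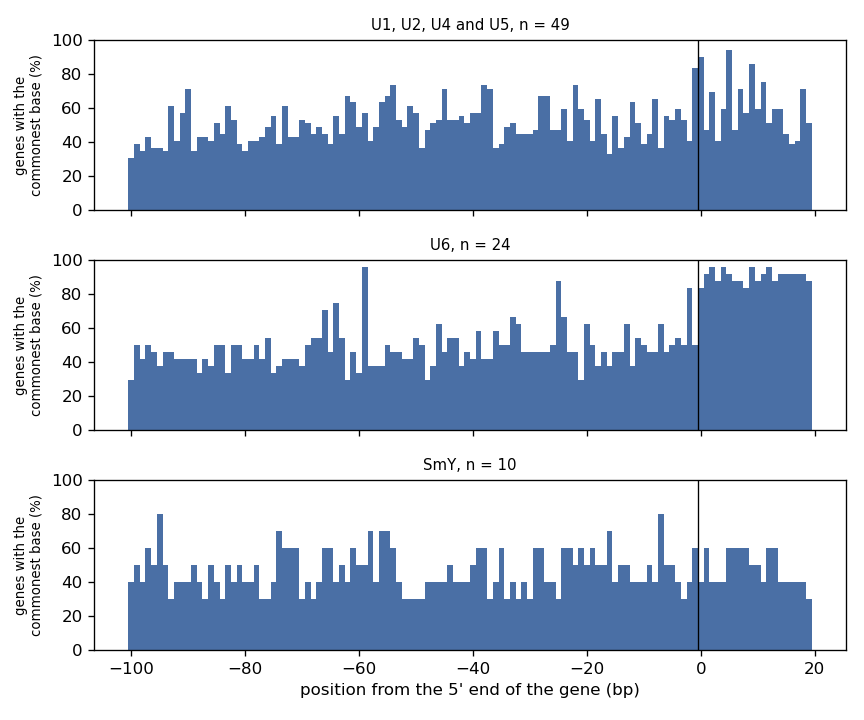
Percent of genes that carry the commonest base at each position from 100 bp upstream to 19 bp into the gene (position 0 is the first base), for the 49 U1, U2, U4 and U5 genes, the 24 U6 genes and the 10 SmY genes. In U6 a single position at -59 bp reaches 95.8%, and agreement rises again inside the gene.

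The spaced pair stood upstream of 7 of the 11 genes and of 36 of the 88 others. Among the 7, mir-1831 and sup-39 are counted apart although their pair is the same stretch. By family the pair was at 1 U2 gene with an IDR summit and 16 without, at no U5 gene with one and 6 without, and at 3 U1 genes with one and 2 without. In U6, 3 of 24 genes had the pair and TATATAA together, and 2 of these, R07E5.16 (WBGene00014543) and F54D8.7 (WBGene00195000), are the U6 genes with an IDR summit. That combination was looked for after the values were seen and is a description of these sequences. Within 100 bp of a summit, on both strands, the pair occurred at 5 of the 14 summits at snRNA genes (35.7%) and 1 of 9 summits at spliced leader genes (11.1%). It occurred at 1.54% of the remaining 1561 IDR summits and 0.128% of flanking windows. The pair was picked after the upstream sequences of the snRNA genes had been read, so a higher share at their summits follows in part from that choice. Of the six-mers most raised over flanks at the other 1570 IDR peaks, those at spliced leader genes included, GCGCGC was at 14.4% of those peaks and at 2 of the 14 snRNA summits, searched on both strands like the others. ACGCAG was at 26.4% of peaks elsewhere and 1 snRNA summit, ACGCGC at 18.8% and 2 summits, and CGCGCA, which overlaps the first, at 17.7% and 4 summits. With 14 summits these counts do not separate the snRNA genes from the rest.

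Genes for proteins that make or join snRNPs were listed by name: 17 of 58 (29.3%) had an IDR summit in the promoter window, against 7.72% of protein-coding genes. A further 6 listed names matched no gene name in the annotation and were left out, so the LSm and U2 protein groups, among others, are incomplete. The Sm core genes had 5 of 7: snr-4 (210, the summit shared with the U4 gene), snr-3 (82.2), snr-6 (67.4), snr-1 (63.5) and snr-2 (60.4). The LSm genes, for the ring that binds U6 and for a cytoplasmic relative, had 3 of 7, with lsm-5 at 346 in the pooled list (241 and 101 in replicate 1 and replicate 2), lsm-3 at 85.8 and lsm-7 at 67. Integrator, which cleaves the 3′ end of snRNA transcripts, had 4 of 11: ints-4 at 564 (352 and 216), ints-5 at 297 (211 and 89.8), ints-2 at 77.5 and ints-9 at 55. The U2 protein genes had 2 of 5, sftb-6 (481) and sftb-1 (93), and the U5 and tri-snRNP genes 2 of 13, usp-39 (118) and prp-8 (98.7). Of the group for the nuclear cap and transport, imb-1 (106), which encodes the import receptor importin beta, had a summit and the cap binding genes ncbp-1 and ncbp-2 had none. None of the 7 SNAP complex, 3 U1 protein or 2 SMN complex genes had one. For 12 of the 17 genes the summit also lies in the promoter of another coding gene, such as snr-3 with the splicing factor gene rsp-5 or lsm-3, at -957 bp, with 3 others, and a peak list does not say which of them it concerns. Replicate 1 exceeded replicate 2 at lsm-5, ints-4 and ints-5, while prp-8 (41.6 and 58) was higher in replicate 2.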

How the data were processed

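Whole L3 larvae of strain OP218 gave 2 ChIP-seq libraries. The authors deposited narrowPeak lists on ce11: 30000 regions (replicate 1), 29367 (replicate 2), 30000 (pooled) and 1584 (IDR). Signal values, the −log10 q-value and the summit offset score of each region are as deposited by the authors. Per the deposited list of files, each relaxed list came from an alignment and a control alignment. The caller, aligner, IDR threshold and depth were not given in the labels or headers, which leaves the values without a counting error. Lists on ce10 were not used. Chromosome names and lengths of ce11 and WBcel235 were compared, and 0 regions reached beyond a chromosome end.

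Genes came from Ensembl release 115 and sequences from RefSeq. Python 3.11.15, pandas 2.3.3, numpy 2.4.6 and Biopython 1.88 were used, and the distance and strand steps were tested on simulated data. Unique words were 36 bases long, a length set here since the read length is not given. Six-mers had to occur in at least 10% of the peaks, with flanks centred 500 bp to each side. The members, lists, families and windows were chosen with earlier results of these data known. The text names every gene with an IDR summit, the 5 others of highest pooled signal and the genes at the distance limit; copies of these and single SmY and other genes were named after their values were seen. No test was made, since 1 group gives no contrast.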

Additional observations from a re-analysis of the deposited data

How the results depend on the processing

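The count of 11 genes with an IDR summit stayed between 8 and 12 with windows of 100 and 500 bp, distance from the 5′ end, overlap of region and gene, the higher-signal 50% of peaks, and 1 replicate alone (the 1584 highest regions of the other, 10 genes each way). The IDR list was made from both replicates, so the counts with 1 replicate alone are not independent of it. The distinct summits ran from 10 to 15. The count near a pooled summit (40) ran from 34 to 42, and that of snRNP protein genes (17) from 13 to 19. Shares over all nuclear genes were counted at the 200 bp limit only. Whether the distance from those shares holds with other windows was not tested. The median summit position of -18 bp was 11 bp without replicate 1 and -8 bp without replicate 2 or with the 500 bp window. Without replicate 1, F54D8.7 drops out and 10 genes are left; over all 11 genes the replicate 2 median was -22 bp, so the side of the 5′ end is not settled by this few genes. The sharing with coding promoters (8 genes) was 2 with 500 bp upstream to 100 bp downstream, by construction a shorter window, 10 with 2000 and 500 bp, and 7 with either replicate alone. No paired analysis was possible because the replicates belong to 1 group. Unknown depth leaves an absence from a list unreadable as absence of the protein.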
